A study of Mus musculus with 9 samples.

Results

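The expression of genes of the lipid droplet and of lipolysis was followed across primary brown fat cultures exposed to an autotaxin inhibitor or to the enzyme's lipid product. The 10 genes encode droplet-enlarging CIDE proteins (Cidec, Cidea), droplet coat proteins (Plin1, Plin2, Plin4, Plin5), lipases of the steps of triglyceride breakdown (Pnpla2, Lipe, Mgll) and a lipase coactivator (Abhd5). They are 10 of the 19858 genes that had a probe set with a single gene symbol. They were listed by function, with earlier results of these data known. The probe set of each gene was to be selected on its mean intensity over the 9 arrays, the brightest standing for the gene. Each of the 10 had 1 such probe set, so brightness decided nothing among them. The group differences describe a list made with its results in view, and each adjusted p-value comes from a fit over all genes.

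The cultures came from interscapular brown fat of 5-week-old male C57BL/6 mice. Its precursor-enriched cell fraction was grown with insulin at 50 nM from day 1, 100 nM from day 5 and 200 nM from day 7. All 3 groups shared this protocol and held 3 cultures each (n = 3): control cultures given DMSO, cultures given HA155 at 2.5 µM, and cultures given 1-oleoyl lysophosphatidic acid (LPA) at 5 µM. Autotaxin, which HA155 blocks, is a secreted enzyme whose product is LPA. The labels place the treatments at 9 days in vitro and the design text places them during differentiation, and how long the cultures were exposed is not stated. Whether the HA155 and LPA cultures also received DMSO is not stated in the labels. The design sets each treatment against control to find genes that respond to the inhibitor or to the lipid. Total RNA was measured on 9 Affymetrix mouse gene arrays, whose number limits the precision. Cultures are numbered 1 to 3 (control), 4 to 6 (HA155) and 7 to 9 (LPA).

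A fat cell stores triglyceride in droplets whose surface proteins decide how large the droplet grows and which enzymes reach the fat. Perilipin 1 coats the droplet and holds the coactivator Abhd5 until adrenergic signalling through protein kinase A releases it. Abhd5 then activates the triglyceride lipase encoded by Pnpla2, and hormone-sensitive lipase (Lipe) and monoglyceride lipase (Mgll) finish the breakdown. In brown fat the released fatty acids feed and activate heat production.

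The LPA cultures lay apart from the others on the first principal component of all tested genes (66.7% of the variance), at 19.6 to 28.7 against -15.5 to -7.28, with LPA culture 8 at the high end. Of the brown fat markers, Cox7a1 and Cox8b were measured in all groups, but Ucp1, the uncoupling protein that defines the thermogenic brown fat cell, averaged 5.22 ± 0.09 (SD, n = 3) on the log2 scale in control. That is below 5.59, the log2 intensity below which a gene was left out of the main test, and Dio2 was below it as well. The cultures are therefore called brown fat cultures by their source.

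With LPA, 8 of the 9 tested genes were lower than in control (limma, adjusted p below 0.05), where 10.8% of all 13335 tested genes were lower. In the same 8 genes all LPA cultures lay below all control cultures, as in 15.6% of all tested genes. None was higher. The median log2 difference of the 9 was -1.22, against 0.01 for all tested genes. Plin5 was the exception, and Cidea was too dim to be tested with the rest. With HA155, Cidec and Plin4 were higher, 2 of 9 tested genes, where 0.607% of all tested genes were higher, and in 5 of 9 (Cidec, Plin2, Plin4, Pnpla2, Lipe) all HA155 cultures lay above control, against 8.87% of all tested genes. In this comparison the median of the 9 was 0.07. Between LPA and HA155, 8 of 9 were lower with LPA, where 12.4% of all tested genes were lower, with a median of -1.35. The LPA and HA155 comparisons against control use the same 3 control cultures.

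**Figure D1:**
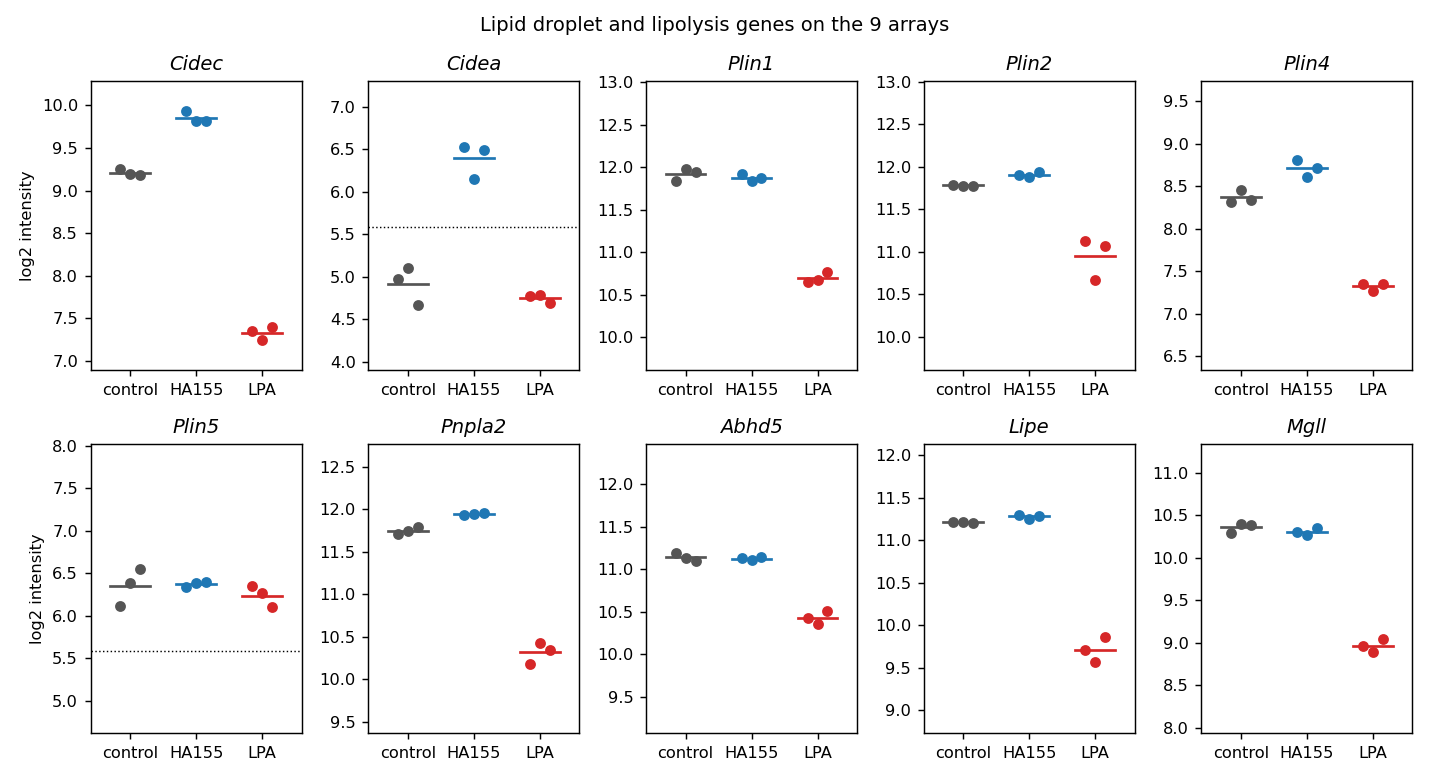
Log2 intensity (y axis) of each gene on the 9 arrays, by group (x axis), with a point per culture and a line at the group mean. Every panel spans the same number of log2 units, and the dotted line marks the intensity filter at 5.59. The LPA points lie below both other groups for 8 genes, while Plin5 overlaps and Cidea stands out only with HA155.

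Cidec, also known as Fsp27, sits where droplets touch and promotes the transfer of lipid into the larger droplet. It measured 9.25, 9.19 and 9.19 (log2 intensity) in control cultures 1, 2 and 3. With HA155 it measured 9.93, 9.82 and 9.81, and with LPA 7.35, 7.24 and 7.39. The 3 groups were fully separated, LPA lowest and HA155 highest. With LPA, Cidec fell by 1.88 log2 units (SE 0.06, limma adjusted p = 5.01e-08), which left 27.1% of the control intensity. Only 5 of the 13335 tested genes had a lower log2 difference. With HA155 it rose by 0.65 (SE 0.06, limma adjusted p = 0.000756), a factor of 1.56, which ranked 22 from the highest. Between the treated groups the difference was -2.53 (SE 0.06, limma adjusted p = 2.49e-09), a factor of 5.77.

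Cidea, a CIDE protein abundant in brown fat, was dim. The control cultures gave log2 intensities of 4.97, 5.10 and 4.67 and the LPA cultures 4.78, 4.79 and 4.69, all under the filter level of 5.59. The HA155 cultures gave 6.53, 6.15 and 6.49, all above it. When the fit was run with no intensity filter, HA155 cultures exceeded control for Cidea (limma adjusted p = 0.00108), where 0.257% of 19858 genes were higher. In that fit it was lower with LPA than with HA155 (limma adjusted p = 6.59e-06), where 7.64% were lower. No fold is given, since control and LPA levels near the background fix no ratio. LPA and control did not differ by the test (limma adjusted p = 0.460), and at this intensity a further loss could not have been seen. Of the brown fat markers, 2 of 4 tested rose with HA155, where 0.607% of all tested genes did. They were Cox7a1 (1.13) and Cox8b (1.01), both mitochondrial cytochrome oxidase subunit genes. Prdm16 (-0.03) and Ppargc1a (0.17) did not pass, and Ucp1 (0.07) and Dio2 (0.02) were under the filter level. The summed intensity of the 6 was 1898 to 2026 with HA155 and 1065 to 1113 in control, mostly from Cox7a1 and Cox8b. With LPA the sum was 454 to 491, where Cidea overlapped with control. The part of these markers in the Cidea result was not tested.

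Promoter sequence from RefSeq (build GRCm38.p6) was at hand for 9 of the 10 genes, all but Cidea, as the 250 bases before each annotated start, 13 windows in all. Each window was searched on both strands for 5 motifs. The motifs were the nuclear-receptor direct repeat bound by PPAR partners, with a single spacer base, the C/EBP core TTGCNNAA, the E-box CACGTG, the TATA-like CTATAAG and the cAMP response element TGACGTCA. The windows of Cidec and Plin1 are shown because these genes encode binding partners that both fell with LPA and parted with HA155. Cidec has 2 annotated starts, and the outer is shown, on the minus strand of chr6:113435761-113436010. Plin1 is on the minus strand of chr7:79732777-79733026. Capitals mark the C/EBP core.
Cidec: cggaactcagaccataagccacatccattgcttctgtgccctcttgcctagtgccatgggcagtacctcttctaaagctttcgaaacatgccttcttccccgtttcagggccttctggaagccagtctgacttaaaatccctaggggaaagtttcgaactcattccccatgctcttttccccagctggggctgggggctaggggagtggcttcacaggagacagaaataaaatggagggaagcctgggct
Plin1: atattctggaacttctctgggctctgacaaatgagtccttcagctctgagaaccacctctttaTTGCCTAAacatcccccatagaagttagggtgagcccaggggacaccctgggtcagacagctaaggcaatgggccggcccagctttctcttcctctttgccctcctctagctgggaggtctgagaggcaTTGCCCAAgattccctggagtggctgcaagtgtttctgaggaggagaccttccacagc
The C/EBP core occurred in the Plin1 window at positions -187 to -180 and -58 to -51, counted back from the start, and not in the Cidec window shown. It also occurred before the inner Cidec start, at -198 to -191. Of all 32851 promoter windows of this length 9.56% held it. Neither the direct repeat nor the cAMP element, held by 0.338% and 1.55% of all windows, was found before any of the 9 genes. A match is a run of letters and does not show binding.

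Plin1 encodes the main droplet coat of the fat cell, which gates access of lipases. It measured 11.83, 11.98 and 11.94 in control, 11.93, 11.83 and 11.87 with HA155, and 10.65, 10.67 and 10.77 with LPA (log2 intensity). Control and HA155 cultures overlapped, and the LPA cultures lay below both. With LPA, Plin1 fell by 1.22 log2 units (SE 0.06, limma adjusted p = 4.25e-07), to 43.0% of control. With HA155 the log2 difference was -0.04, with a 95% interval of -0.18 to 0.10 (limma adjusted p = 0.961).

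Cidec and Plin1 were compared on the same arrays, a pair chosen, as were the later gene pairs, after their values were seen. The log2 ratio of Cidec to Plin1 changed by -0.66 with LPA and by 0.69 with HA155, and in both comparisons the 3 treated cultures lay outside the range of control. An exact two-sided permutation test gave p = 0.1 for each, the smallest that 3 against 3 cultures allow.

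Plin2, a coat protein found on droplets of most cell types, showed the widest spread with LPA among the 10 genes. Its log2 intensity was 11.79, 11.77 and 11.77 in control and 11.90, 11.87 and 11.94 with HA155. With LPA it was 11.13 and 11.07 in cultures 7 and 9 but 10.67 in culture 8. All LPA values lay below the control values. With LPA, Plin2 fell by 0.82 log2 units (SE 0.10, limma adjusted p = 0.000138), and by 0.68 without LPA culture 8. With HA155 the 3 values lay above the control values, but the log2 difference of 0.13 (95% interval -0.09 to 0.35) did not pass (limma adjusted p = 0.887). That interval uses the spread of all 3 groups, whose SD was 0.25 with LPA, 0.008 in control and 0.03 with HA155.

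Plin4, a coat protein of fat cells, measured 8.32, 8.45 and 8.34 in control, 8.81, 8.61 and 8.72 with HA155 and 7.35, 7.26 and 7.36 with LPA (log2 intensity). As for Cidec, the groups were separated in the order LPA, control, HA155. With LPA, Plin4 fell by 1.05 log2 units (SE 0.07, limma adjusted p = 2.12e-06), to 48.4% of control. With HA155 it rose by 0.34 (SE 0.07, limma adjusted p = 0.0446), a factor of 1.27. This call is narrow. It was lost in 11 of 19 alternative fits, among them each of the 6 that left out a control or HA155 culture (adjusted p 0.0747 to 0.226) and those that left out LPA culture 7 or 9 (0.0712 and 0.0622).

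Plin5, a coat protein of tissues that burn fat, where it links droplets to mitochondria, did not follow the other coat genes. It measured 6.11, 6.38 and 6.55 in control, 6.34, 6.38 and 6.40 with HA155 and 6.35, 6.27 and 6.10 with LPA (log2 intensity). The groups overlapped throughout. The log2 difference was -0.11 with LPA (95% interval -0.33 to 0.12, limma adjusted p = 0.497) and 0.03 with HA155 (95% interval -0.20 to 0.25, limma adjusted p = 0.987). These levels were less than 1 log2 unit above the filter level, where array summaries compress changes, so a change of the true level may be understated.

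Plin4 and Plin5 are neighbours in the RefSeq annotation, with no protein-coding gene between them, and both lie on the minus strand of chromosome 17. Their log2 ratio, Plin4 over Plin5, changed by -0.94 with LPA and by 0.32 with HA155, without overlap of the cultures (exact two-sided permutation p = 0.1 for each, the smallest possible). The gene on the other side of Plin5 is Lrg1, a secreted glycoprotein gene named here after its values were seen. Lrg1 rose with HA155 by 1.16 (SE 0.14, limma adjusted p = 0.00277) and measured -0.02 with LPA (limma adjusted p = 0.927). Its control mean of 5.89 was just above the filter level, so a fall with LPA could hardly have been seen.

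The windows before the starts of the neighbours Plin4 (chr17:56109783-56110032) and Plin5 (outer start, chr17:56117549-56117798) are shown because the ratio of these adjacent genes changed in both comparisons. With HA155 that change rests on the narrow Plin4 call and on Plin5 at levels where changes are compressed. Both windows are on the minus strand of GRCm38.p6, and capitals mark the TATA-like run.
Plin4: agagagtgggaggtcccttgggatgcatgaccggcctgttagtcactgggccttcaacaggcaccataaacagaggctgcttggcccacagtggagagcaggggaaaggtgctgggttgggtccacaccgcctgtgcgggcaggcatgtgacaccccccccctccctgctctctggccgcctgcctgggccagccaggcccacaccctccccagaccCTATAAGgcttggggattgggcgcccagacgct
Plin5: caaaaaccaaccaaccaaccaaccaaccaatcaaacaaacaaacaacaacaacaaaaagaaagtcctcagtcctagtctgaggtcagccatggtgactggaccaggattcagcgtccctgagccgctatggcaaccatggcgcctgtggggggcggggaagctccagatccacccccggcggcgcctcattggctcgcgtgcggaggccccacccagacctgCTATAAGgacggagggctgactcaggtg
Each held CTATAAG, at -33 to -27 before Plin4 and at -28 to -22 before Plin5, as did 1.5% of all windows. None of the other 7 genes held it. The Plin4 window had 65.2% G and C with 6 CpG pairs, and the Plin5 window 58% with 11, where the median window had 52.4% and 6. The windows of Cidec and Plin1 held 4 and 1 CpG pairs.

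The E-box was found before the lipase genes Lipe (outer start, at -155 to -150) and Mgll (outer start, at -44 to -39), and in 6.02% of all windows. The windows before Abhd5 and the outer start of Mgll held 22 and 23 CpG pairs, those before Pnpla2 and the outer start of Lipe 12 and 18, and those before the inner starts of Lipe and Mgll 1 and 40. These are counts of letters, given without a test.

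Pnpla2 encodes adipose triglyceride lipase, which takes the initial fatty acid from triglyceride. It measured 11.72, 11.75 and 11.79 in control, 11.93, 11.95 and 11.96 with HA155 and 10.18, 10.42 and 10.35 with LPA (log2 intensity). The 3 groups did not overlap. With LPA, Pnpla2 fell by 1.43 log2 units (SE 0.07, limma adjusted p = 2.47e-07), to 37.1% of control. With HA155 the log2 difference of 0.20 (95% interval 0.05 to 0.34) did not pass over all genes (limma adjusted p = 0.373), although all 3 cultures were above control.

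Abhd5, the coactivator of that lipase, fell less. Its log2 intensity was 11.19, 11.13 and 11.09 in control, 11.13, 11.10 and 11.14 with HA155 and 10.43, 10.36 and 10.51 with LPA. Only the LPA cultures stood apart. With LPA, Abhd5 fell by 0.71 log2 units (SE 0.06, limma adjusted p = 1.14e-05), to 61.2% of control, and differed by -0.01 with HA155 (95% interval -0.15 to 0.12, limma adjusted p = 0.987). The log2 ratio of Pnpla2 to Abhd5 changed by -0.72 with LPA and by 0.21 with HA155, each without overlap (exact two-sided permutation p = 0.1, the smallest possible).

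Lipe, which encodes hormone-sensitive lipase and cleaves diglyceride, measured 11.21, 11.21 and 11.20 in control and 11.30, 11.25 and 11.28 with HA155. With LPA it measured 9.71, 9.57 and 9.86 (log2 intensity). The LPA cultures were clearly below, and the HA155 cultures just above, a tight control group (SD 0.007). With LPA, Lipe fell by 1.50 log2 units (SE 0.07, limma adjusted p = 2.91e-07), to 35.5% of control, and measured 0.07 with HA155 (95% interval -0.09 to 0.23, limma adjusted p = 0.931). The log2 ratio of Pnpla2 to Lipe changed by 0.06 with LPA, within the spread of cultures (exact two-sided permutation p = 1). With HA155 that ratio changed by 0.13, without overlap (exact two-sided permutation p = 0.1, the smallest possible).

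Mgll, the monoglyceride lipase that releases glycerol, measured 10.29, 10.39 and 10.39 in control, 10.31, 10.26 and 10.35 with HA155 and 8.96, 8.89 and 9.04 with LPA (log2 intensity). Control and HA155 overlapped, and LPA lay below. With LPA, Mgll fell by 1.39 log2 units (SE 0.06, limma adjusted p = 2.33e-07), to 38.0% of control, and measured -0.05 with HA155 (95% interval -0.19 to 0.09, limma adjusted p = 0.951). The 3 lipase genes thus fell by like amounts with LPA, between 1.39 and 1.50 on the log2 scale.

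**Figure D2:**
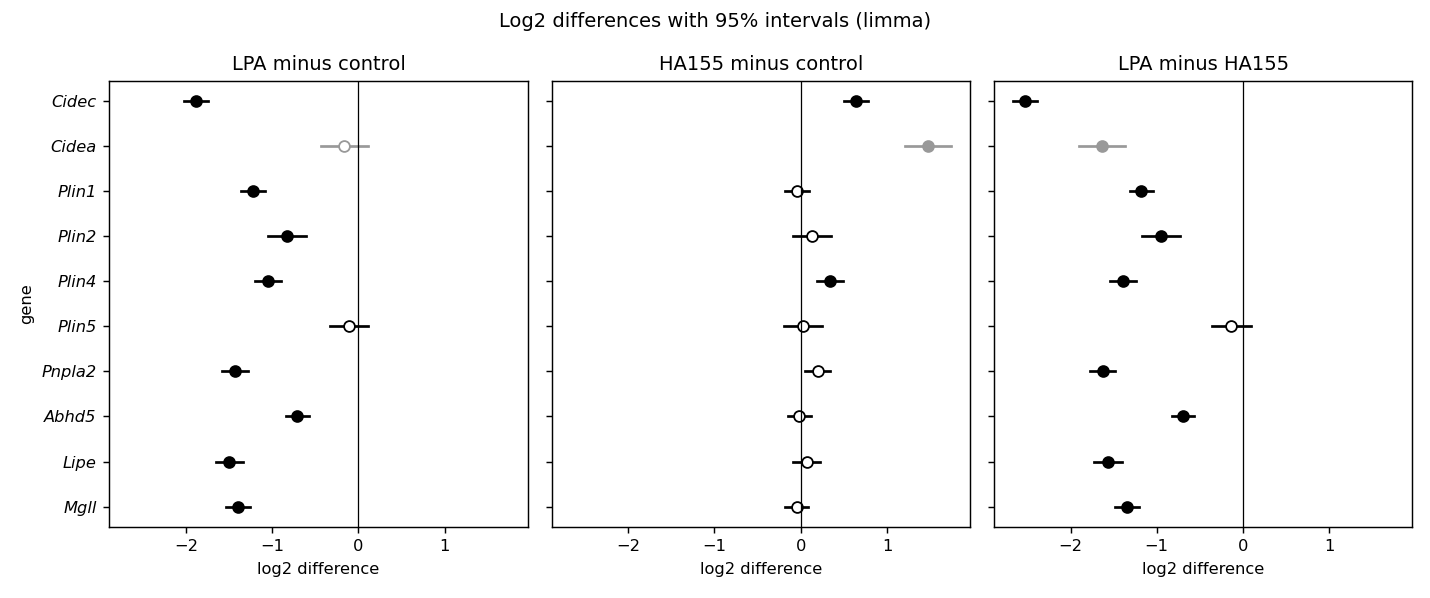
Log2 difference (x axis) of each gene (y axis) in the 3 comparisons, with 95% intervals from limma. Filled points passed at an adjusted p below 0.05 over all genes, and grey marks Cidea, from the fit without the intensity filter. The size of the Cidea differences is not interpreted, since its control and LPA levels were near the background. The LPA difference was -1.88 for Cidec and -0.71 for Abhd5, while with HA155 the filled points are Cidec, Cidea and Plin4.

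Placed among all tested genes by their log2 difference with LPA, Lipe ranked 24, Pnpla2 32, Mgll 43 and Plin1 68 from the lowest of 13335. Plin4 ranked 102, Plin2 218, Abhd5 316 and Plin5 3359. With HA155 only Cidec (22) and Plin4 (123) ranked this near the highest end, followed by Pnpla2 at 493. LPA culture 8 was the lowest of the LPA cultures for 6 of the 10 genes and culture 9 the highest for 6. All 8 falls with LPA passed without culture 8, as they did in every other alternative fit.

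**Figure D3:**
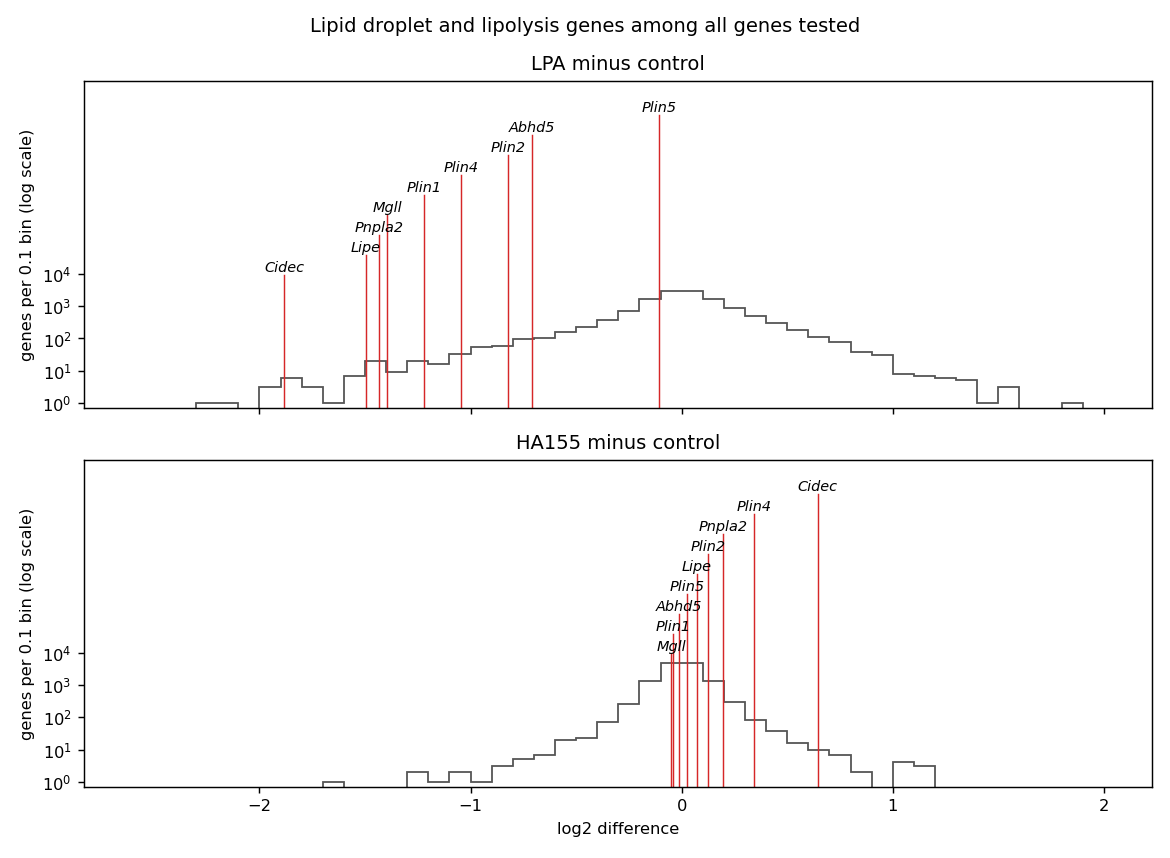
Number of tested genes (y axis, log scale) per 0.1 bin of log2 difference (x axis), LPA minus control above and HA155 minus control below, with the 9 tested droplet and lipolysis genes as red lines whose height has no meaning. With LPA 8 lines lie in the left tail and Plin5 near the centre, and with HA155 only Cidec and Plin4 leave the bulk.

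These falls accompanied a fall in fat cell markers. All 7 tested adipocyte markers (Adipoq, Lep, Pparg, Cebpa, Retn, Slc2a4, Lpl) fell with LPA, where 10.8% of all tested genes did. Their summed intensity was 14444 to 14995 against 23031 to 23814 in control and 23433 to 24443 with HA155. Lpl, the brightest of them (log2 mean 13.64 in control), weighs most in that sum. Among all tested genes 12.2% rose with LPA. Of 6 preadipocyte markers 3 rose (summed intensity 8062 to 8650 with LPA against 5959 to 6408 in control). Of 9 skeletal muscle markers 5 rose (1537 to 1790 against 1120 to 1188). None of the 3 tested macrophage markers passed, and their list summed to 356 to 420 with LPA against 367 to 390, with Adgre1, Mrc1, Itgam and Fcgr1 under the filter level. Of 3 tested endothelial markers 1 rose, and the list summed to 399 to 418 against 348 to 380, with Pecam1, Kdr and Emcn under the filter level. With HA155 the preadipocyte sum was 4842 to 5525, below control, and Dlk1, the preadipocyte factor, fell by 0.82 (limma adjusted p = 0.000609). Lep, the leptin gene, rose with HA155 by 0.66 (limma adjusted p = 0.00257) and the muscle myosin gene Myh1 by 0.64 (limma adjusted p = 0.00695), while the muscle sum, at 1130 to 1235, overlapped with control. The part of these markers in the falls with LPA and the rises of Cidec, Cidea and Plin4 with HA155 was not tested. In such bulk RNA, fewer fat cells and less RNA per fat cell cannot be told apart.

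Set against the mean of the 7 adipocyte markers on the same array, which shifted by -1.06 with LPA, the genes differed in sign. This comparison was chosen after the values were seen. Lep, 1 of the 7 markers, averaged 5.60 with LPA, near the filter level, so its part of the shift may be understated. The single markers ran from -0.39 (Lpl) to -1.95 (Retn), a range that holds the log2 differences of all 8 genes that fell, so only the markers' mean is compared. Relative to that mean, Cidec differed by -0.82, Lipe by -0.43, Pnpla2 by -0.37 and Mgll by -0.33, all without overlap of LPA and control cultures. Plin4 (0.02), Plin1 (-0.16) and Plin2 (0.24) overlapped with control. Abhd5 (0.35) and Plin5 (0.95) were higher relative to the mean without overlap, Plin5 at levels where changes are compressed. A gene that does not change with LPA stands 1.06 higher on this scale, so being higher on it is not particular to these genes. The share of all tested genes without overlap on this scale was not counted. The exact two-sided permutation p was 0.1 for each gene that did not overlap, the smallest that 3 against 3 allow, 0.2 for Plin1, 0.4 for Plin2 and 0.7 for Plin4. With HA155 the markers' mean shifted by 0.11, with Lep at 0.66 and the other markers between -0.09 (Cebpa) and 0.16 (Adipoq). Cidec (0.54), Plin4 (0.24) and Pnpla2 (0.09) were above control on this relative scale without overlap, and Plin1 (-0.15), Mgll (-0.16) and Abhd5 (-0.12) below it. Before the subtraction Plin1 (-0.04), Mgll (-0.05) and Abhd5 (-0.01) did not pass, so most of their relative difference is the shift of the markers' mean.

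Other droplet proteins moved less uniformly. Of 23 tested genes of this list, 8 fell and 2 rose with LPA, where 10.8% and 12.2% of all tested genes did, and the list median was -0.06. Pnpla3, a relative of the triglyceride lipase, fell by 1.60 (limma adjusted p = 1.24e-06) and Dgat2, which makes triglyceride at the droplet, by 1.06 (limma adjusted p = 2.32e-06). Cav1, the caveolin of fat cell membranes, fell by 0.86 and Fitm2, which helps droplets bud, by 0.79. Bscl2, the seipin gene of droplet assembly, fell by 0.60, and Nsdhl, a sterol enzyme found on droplets, by 0.48. Plin3, the coat protein of most cells, measured 0.04 (limma adjusted p = 0.749) and Cideb, the liver-type CIDE gene, -0.11 (limma adjusted p = 0.496). Cideb averaged 6.26 in control, a level at which, as for Plin5, a change may be understated. Among perilipins with a value, Plin1, Plin2 and Plin4 thus passed for LPA and Plin3 and Plin5 did not. With HA155 1 of 23 rose, Mettl7a1, a droplet-associated methyltransferase-like gene, by 0.38 (limma adjusted p = 0.0240). Its call was lost without control culture 2 or 3 or HA155 culture 4, 5 or 6 (adjusted p 0.0663 to 0.144).

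Of 27 tested genes that control lipolysis, 13 fell and 5 rose with LPA, where 10.8% and 12.2% of all tested genes did, with a median of -0.15. Aqp7, the glycerol channel, fell by 1.52 (limma adjusted p = 5.22e-07), Pde3b, the phosphodiesterase through which insulin restrains lipolysis, by 1.12 (limma adjusted p = 4.46e-07) and Hcar1, the lactate receptor that restrains it, by 1.13. G0s2, a direct inhibitor of the triglyceride lipase, fell by 0.63 (limma adjusted p = 0.000461). Abhd6, another monoglyceride lipase, fell by 0.71 and Adcy5, an adenylyl cyclase, by 0.55, while Ptger3, a prostaglandin receptor, measured -0.15 (limma adjusted p = 0.179). Genes whose products drive lipolysis and genes whose products hold it back were thus among those that fell. Adrb3 and Prkaca were not analysed here.

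With HA155, 1 of the 27 passed, in the lower direction, as did 0.427% of all tested genes. Npr3, the natriuretic peptide clearance receptor, fell by 0.27 (limma adjusted p = 0.0350) and rose with LPA by 0.35 (limma adjusted p = 0.000522). Its HA155 call was lost in 8 of 19 alternative fits, among them each that left out control culture 1, 2 or 3 or HA155 culture 4, 5 or 6 (adjusted p 0.0935 to 0.180). Pde3b measured 0.28 with HA155 (95% interval 0.15 to 0.41, limma adjusted p = 0.0610), Adcy5 -0.26 (limma adjusted p = 0.161) and Ptger3 0.22 (limma adjusted p = 0.338). The Pde3b miss is narrow too. It passed in 8 of 19 alternative fits (limma adjusted p down to 0.0100), and Adcy5 and Ptger3 passed in 1 each.

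**Figure D4:**
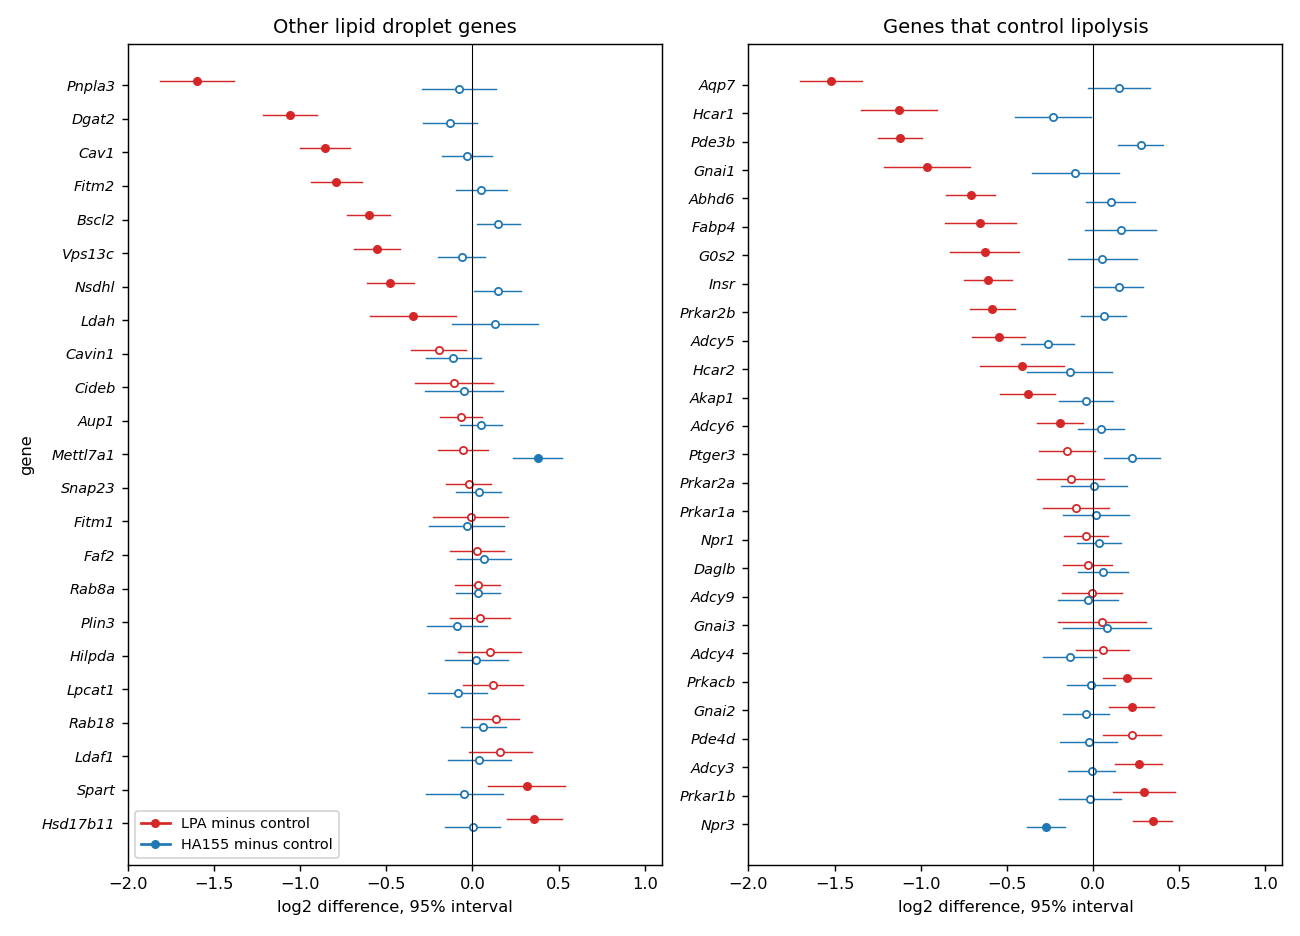
Log2 difference (x axis) with 95% intervals of the tested genes (y axis) of 2 lists, other droplet genes at left and genes that control lipolysis at right, LPA minus control in red and HA155 minus control in blue. Filled points passed at an adjusted p below 0.05. Pnpla3 and Aqp7 lead the LPA falls, at or beyond -1.52, and only Mettl7a1 and Npr3 are filled for HA155.

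The genes whose profile over the 9 arrays lay nearest to that of Cidec were Orm1, Dnah3, Cox8b, Ces1d and Acss2. Likeness was the root mean square difference of log2 values after each gene's control mean was subtracted, among 13326 tested genes outside the list. It was 0.14 for Orm1, which encodes an acute-phase protein, and 0.24 for Acss2, which encodes an acetate-activating enzyme. Orm1 differed from control by -1.86 with LPA and 0.86 with HA155, Cox8b, a cytochrome oxidase subunit gene, by -1.85 and 1.01, and Ces1d, a carboxylesterase gene, by -2.0 and 1.01. All 3 passed in both comparisons (limma adjusted p = 0.000609 or less). The 5 genes were picked for likeness to Cidec on these same arrays. Cidec passed in both comparisons, so their p-values add no separate support. Dnah3, a dynein gene, and Acss2 passed for LPA, and with HA155 measured 0.73 (limma adjusted p = 0.0990) and 0.50 (limma adjusted p = 0.0878). With HA155, Dnah3 passed in 5 of 19 alternative fits and Acss2 in 3. The Dnah3 value rests on the brightest of several probe sets, and with their mean its LPA difference was -0.10 (limma adjusted p = 0.310).

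**Figure D5:**
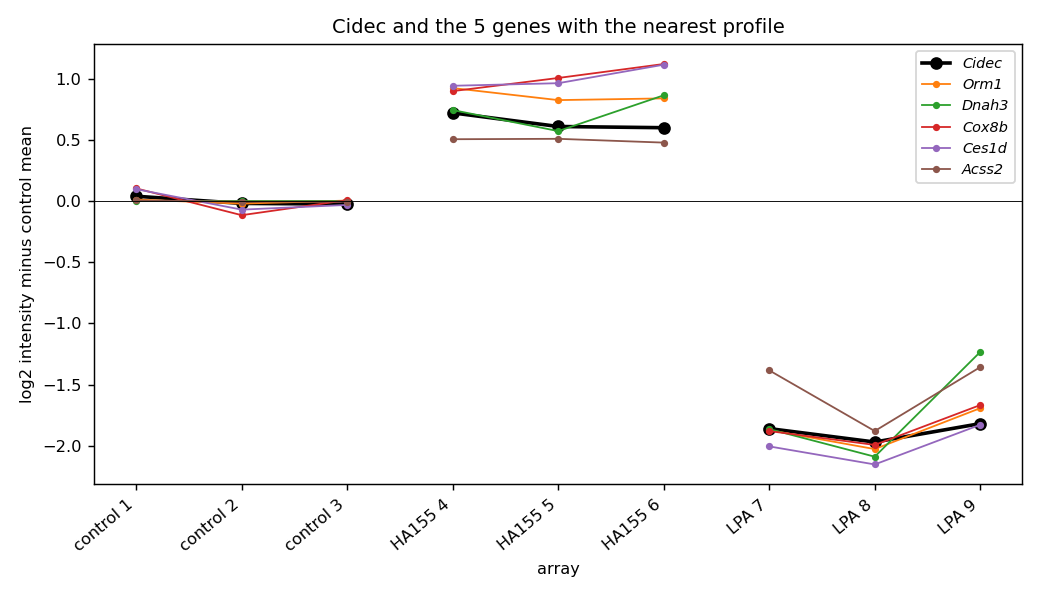
Log2 intensity minus the gene's own control mean (y axis) on each array (x axis) for Cidec, in black, and the 5 genes nearest to it. All 6 genes lie above their control mean on the HA155 arrays and below it on the LPA arrays, and Acss2 has the smallest HA155 difference, at 0.50.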

How the data were processed

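Each array's deposited table holds an intensity for every probe set. RMA is named for it, per the submitters' processing notes, with no version given in the sources used here. The range of values shows that the scale is linear. RMA equalises arrays (median intensity 70.7 to 72.8) and compresses changes of dim probes. Values were taken to log2 as they stood. The platform annotation gave a single gene symbol to 21706 of 35432 probe sets, or 19858 genes, each by its brightest probe set. Genes with a mean under the 40th percentile of probe sets (5.59 on the log2 scale) were left out, which left 13335.

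Groups were compared with limma 3.58.1 in R 4.3.3 (lmFit, eBayes) on all 9 arrays, two-sided, with Benjamini-Hochberg adjustment over all tested genes at 0.05. The procedure was run on simulated data in which each gene had the same spread in all 3 groups. In the arrays the median SD was 0.11 with LPA, 0.07 in control and 0.05 with HA155. The simulation therefore does not test the effect of unequal spread. The genes, lists and motifs were chosen with earlier results of these data known. Named beside the 10 genes were the 4 of smallest p per list and control comparison, a few fixed genes, marker genes and the 5 profiles nearest to Cidec. Limma p-values rest on the spread between the 3 cultures of each group, pooled over all 3 groups and moderated over all genes. Each culture has its own subject number. No batch is named in the labels, and batch and treatment cannot be told apart where they coincide. Alternatives were the filter, offset, normalization, variance model, probe set rule and leaving out each array.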

Additional observations from a re-analysis of the deposited data

How the results depend on the processing

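The 30 differences of the 10 genes (3 comparisons each) were refitted under 19 alternatives, 570 values in all. In 559 the side of the threshold was kept, and 11, all for Plin4 with HA155, no longer passed (adjusted p up to 0.226). No called difference changed sign. The sign changed in 3 refits of differences that did not pass, with HA155, once for Plin5 (-0.09, against 0.03) and otherwise for Abhd5 (up to 0.01, against -0.01). Cidea is included, from fits without the filter. The count of called genes among the 10 was 8 in every alternative for LPA against control, 9 (with Cidea) in every one for LPA against HA155, and 2 or 3 for HA155 against control.

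For LPA against control, the 10 calls among other droplet proteins ranged from 8 to 10 over the alternatives. The 18 calls among genes that control lipolysis ranged from 13 to 19. Among marker genes, the LPA calls of Dlk1 and Tnnc2 were lost in 7 and 4 of 19 alternatives. Cd34, Dpp4 and Prdm16, not called with LPA, passed in 2 each. For HA155 against control, the 1 call among other droplet proteins became 0 to 1 when an array was left out. The 1 call among genes that control lipolysis became 0 without the filter or with arrays centred on their median. It became 2 with the 60th percentile filter, an offset of 16, quantile normalization once more, an intensity trend or only the 2 groups compared, and 4 with array weights. It was 0 to 2 when an array was left out. The cause was not tested. Of 462 refits of ratios within an array, an alternative chosen after seeing the data, 459 moved by less than 1 SD.

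No paired analysis was possible because subject numbers differ between the groups. With 3 arrays a group, no exact test of a single value can go below p = 0.1.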

Other observations

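The protein-coding genes next to the 10 in the RefSeq annotation were read as well. Of 15 tested neighbours outside the list, 4 fell and 1 rose with LPA, where 10.8% of all tested genes fell and 12.2% rose. With HA155 the only one that passed was Lrg1, which rose, as did 0.607% of all tested genes. Pex11a, a peroxisome division gene beside Plin1, fell with LPA by 1.31 (SE 0.09, limma adjusted p = 3.88e-06) and measured 0.33 with HA155 (limma adjusted p = 0.217). With HA155 it passed in 3 of 19 alternative fits. The genes beside Cidec fell less with LPA, Rpusd3 by 0.43 (limma adjusted p = 0.000985) and Jagn1 by 0.30 (limma adjusted p = 0.0119). Both neighbours of Pnpla2 and both of Plin2 missed the threshold for LPA, with log2 differences of 0.01 to 0.11. Cracr2b, beside Pnpla2, averaged 5.57 in control, under the filter level, so a fall there could hardly have been seen. These genes were chosen by position after the results of the 10 were known.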
